A study of Mus musculus with 4 samples.

Results

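The respiratory chain genes of white adipose tissue were examined gene by gene and complex by complex. They were the array's non-control probes named for subunits of complexes I to V and for cytochrome c, without the assembly factors whose names begin with Ndufaf. This gave 87 genes on 128 probes, of 41174 non-control probes for 27616 genes in all. The diets were compared, with 2 arrays each. The arrays of the high fat diet (HFD) held fat of female C57BL/6 mice given High fat diet 32 from 8 weeks of age for 18 weeks. The arrays of the low fat diet (LFD) held fat of female C57BL/6 mice given the standard diet CE2 over the same time. Both diets came from CLEA Japan. Each RNA sample pooled adipose tissue of 3 mice, so no value belongs to a single animal, and the fat depot is not named. The labels do not say whether the replicates are separate pools, so the spread behind each p-value is that of these 2 samples per diet and could be technical.

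The respiratory chain sits in the inner mitochondrial membrane. Complex I takes electrons from NADH and complex II takes them from succinate, complex III passes them to cytochrome c, and complex IV hands them to oxygen, while complexes I, III and IV pump protons that complex V uses to make ATP. Most subunits are encoded in the nucleus and a small core in mitochondrial DNA. Several complex IV subunits exist in a widespread form and in a form typical of heart, muscle, brown fat or testis. White adipocytes hold few mitochondria beside brown ones, in which the proton gradient can be spent as heat through Ucp1.

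The level of a gene is given below as log2 of its background-subtracted signal over the 75th percentile of the array's non-control signals, so that 0 marks the 75th percentile. A change is the HFD mean minus the LFD mean on that log2 scale, and levels of different probes cannot be set against each other. A gene was tested if, in HFD, in LFD or in both, its probe lay well above background on each of the 2 arrays, and it was called when limma's Benjamini-Hochberg adjusted p over all 26054 tested probes was under 0.05. Each gene is represented by its tested probe of highest mean signal. Of the 87 genes, 84 passed the filter and lay well above background on all 4 arrays. The other 3, Cox4i2, Cox7b2 and Cox8c, were not well above background on any array.

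The 4 arrays correlated at 0.992 between the HFD replicates and 0.989 between the LFD replicates, and at 0.965 to 0.971 across diets. HFD replicate 2 had the fewest probes well above background, 21313, against 26419 to 27938 on the other arrays. Adipocyte markers were strongly expressed on every array: their summed signal was 1969 and 2086 on the HFD arrays and 2057 and 2368 on the LFD arrays, in units of the array's 75th percentile, and 2 of 16 markers, Retn and Thrsp, fell. Of the macrophage markers 13 of 17 rose, with sums of 487 and 502 in HFD and 264 and 228 in LFD. Of the mesothelial markers 11 of 12 fell, with sums of 14.9 and 11.6 in HFD and 42.8 and 45.0 in LFD. Epithelial markers fell in 5 of 8 cases, with sums of 1.01 and 1.07 in HFD and 8.14 and 9.63 in LFD. Endothelial markers (8 tested) and T and B cell markers (9 tested) had 0 calls with limma, 2 and 1 of them with an unadjusted p under 0.05. The endothelial sums were 33.1 and 36.6 in HFD and 38.7 and 36.8 in LFD. The T and B cell sums were 9.35 and 10.8 in HFD and 15.8 and 6.42 in LFD, with LFD replicate 1 highest and LFD replicate 2 lowest. Among the others, 1 of 4 neuron and Schwann cell markers fell. Markers of several cell types thus moved with diet, and their part in the results below was not tested. In such bulk samples fewer cells of a type and less RNA per cell cannot be told apart.

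Upstream sequence is shown for 4 genes to put members on which the results turn beside the best-known promoter of the group. Windows of 250 bases upstream of the annotated start were taken from RefSeq, build GRCm38.p6, for 71 of 85 genes looked up, 77 windows in all. They were searched on both strands for 4 motifs of factors known to act on mitochondrial genes: GCGCATGCG for Nrf1, TNAAGGTCA for Esrra, CCGGAAGT for factors of the Ets family such as Gabpa, and AANATGGCG for Yy1. Capitals mark a motif match, and the strand is that of the gene. Cycs at chr6:50566570-50566819 (minus strand), the gene for cytochrome c, holds 1 Nrf1 match, 61 bases before the start. Cox6a1 at chr5:115348959-115349208 (minus strand), the widespread partner of the isoform gene that rose, holds 2 overlapping Nrf1 matches. Sdha at chr13:74350241-74350490 (minus strand), which had the largest called fall of the tested nuclear respiratory chain genes, holds no match. Cox8b at chr7:140900447-140900696 (minus strand), a muscle and brown fat isoform, also holds no match.
Cycs: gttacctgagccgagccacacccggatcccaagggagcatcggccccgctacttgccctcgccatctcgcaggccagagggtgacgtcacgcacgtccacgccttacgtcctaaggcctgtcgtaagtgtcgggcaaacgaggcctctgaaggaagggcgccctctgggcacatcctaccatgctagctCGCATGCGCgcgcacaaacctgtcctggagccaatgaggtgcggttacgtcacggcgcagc
Cox6a1: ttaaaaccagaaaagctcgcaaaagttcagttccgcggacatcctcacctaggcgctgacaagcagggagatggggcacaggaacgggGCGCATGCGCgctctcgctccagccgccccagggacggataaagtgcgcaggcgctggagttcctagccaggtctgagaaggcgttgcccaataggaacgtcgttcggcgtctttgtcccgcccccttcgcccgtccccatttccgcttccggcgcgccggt
Sdha: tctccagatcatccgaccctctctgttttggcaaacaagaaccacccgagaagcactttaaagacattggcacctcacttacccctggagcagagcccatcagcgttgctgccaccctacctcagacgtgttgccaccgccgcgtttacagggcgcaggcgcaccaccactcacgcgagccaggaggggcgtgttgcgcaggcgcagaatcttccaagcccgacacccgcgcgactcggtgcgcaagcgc
Cox8b: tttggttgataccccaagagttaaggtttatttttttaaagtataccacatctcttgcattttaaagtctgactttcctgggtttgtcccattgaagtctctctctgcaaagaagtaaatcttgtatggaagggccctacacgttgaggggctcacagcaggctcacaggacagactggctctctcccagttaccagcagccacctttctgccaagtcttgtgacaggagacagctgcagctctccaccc

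The Nrf1 motif was found in 7 of 77 respiratory chain windows (9.09%), beside 1.45% of all 32851 mouse windows of this length. The Yy1 motif was found in 4 (5.19%, beside 1.12%), the Ets motif in 3 (3.90%, beside 2.88%) and the Esrra motif in 2 (2.60%, beside 1.14%). The genes with an Nrf1 match were Cycs, Cox6a1, Ndufa8, Ndufa11, Atp5g2, Atp5k and Atp5l. At least 1 of the 4 motifs was found in 16 windows (20.8%), beside 6.30% of all windows. These 16 windows belonged to genes that were not called, and the 13 windows of genes that fell held 0 matches. A match is a run of letters and not a shown site, and windows with no match say nothing of these factors.

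Most transcripts of the chain had a lower signal in HFD, by amounts that differed between complexes, with medians from -0.60 in complex II to -0.28 in complex V. With limma 16 of the 84 tested genes fell and 1, Cox6a2, rose, while 5.61% of all 17735 tested genes fell and 5.75% rose. The log2 change was negative for 82 of 84 genes, compared with 47.8% of all tested genes. In 75 of 84 genes (89.3%) both HFD arrays lay below both LFD arrays, as they did in 32.7% of all tested genes. In 1 of 84 both lay above, as in 36.2% of all tested genes. The median change was -0.37, a 1.29-fold lower signal in HFD, beside a median of 0.02 over all tested genes. An unadjusted p under 0.05 was found for 51 members (60.7%), beside 34.9% of all tested genes. None of the 16 falls kept its call when any single array was left out. Such a fit has 1 array in 1 diet, and fewer of all tested genes were called lower as well. The number of members with a negative change stayed between 79 and 82 in those fits.

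**Figure D1:**
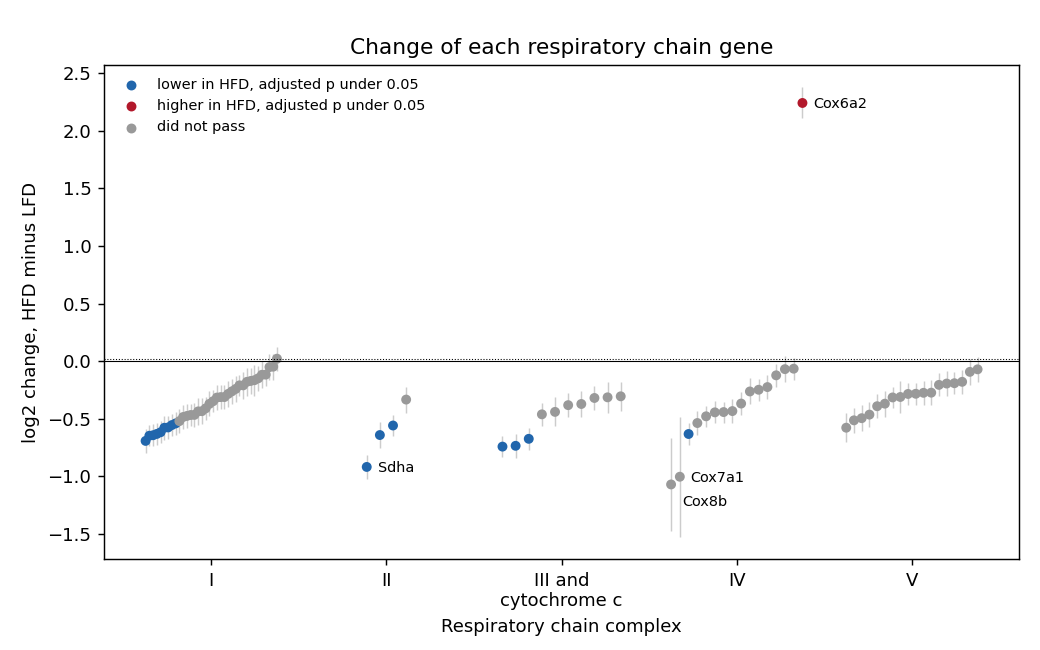
Log2 change (HFD minus LFD, vertical axis) of each of the 84 tested respiratory chain genes, ordered within its complex; points are fitted changes, grey bars their standard errors, and the dotted line the median of all tested genes. Points lie below 0 except Cox6a2 at 2.24 and Ndufb5 at 0.02, and Cox7a1 and Cox8b have the widest errors.

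On single arrays, the median deviation of the 84 genes from each gene's 4-array mean was -0.25 on HFD replicate 1 and -0.11 on HFD replicate 2, against 0.17 and 0.19 on LFD replicates 1 and 2. HFD replicate 1 lay further down than HFD replicate 2 in all 5 complexes. The medians of the diets did not overlap in any complex. For all tested genes the same medians were 0.00 and 0.02 in HFD and -0.03 and 0.02 in LFD. Across the 84 genes the change had a Spearman rho of 0.18 with the mean log2 signal, a description over genes that share arrays and scaling.

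**Figure D2:**
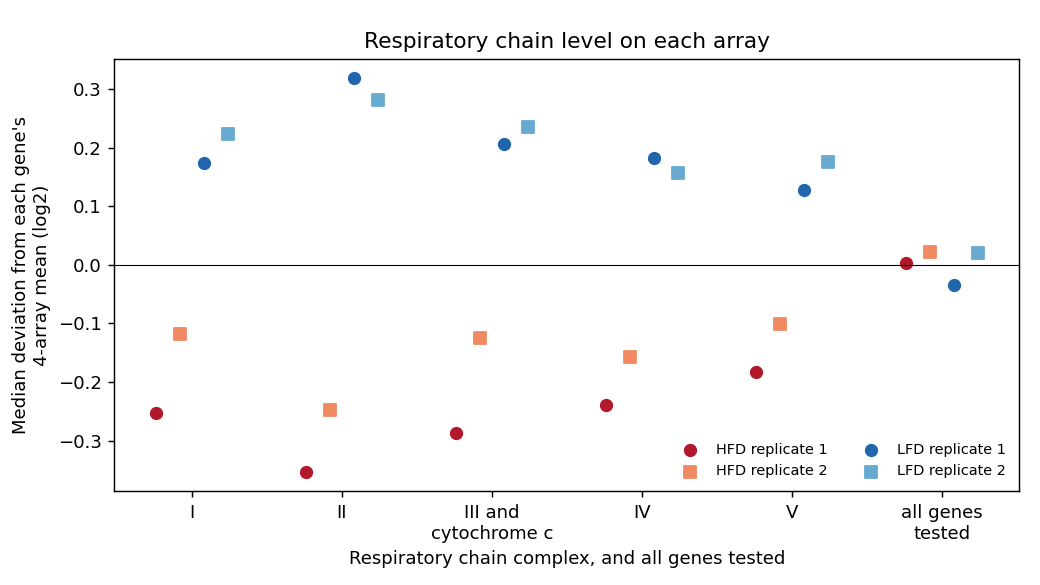
Median, over the tested genes of each complex, of the deviation of log2 signal from the gene's own 4-array mean (vertical axis), for the HFD arrays (red shades) and the LFD arrays (blue shades), with all tested genes at the right. The HFD medians lie between -0.35 and -0.10 and the LFD medians between 0.13 and 0.32 in the 5 complexes.

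Complex I, the entry point for NADH, had 36 tested genes, of which 9 fell and 0 rose with limma; 22 (61.1%) had an unadjusted p under 0.05, as did 34.9% of all tested genes. Its median change was -0.36 and 35 changes were negative. The calls made up 25% of its genes, beside 5.61% called lower among all tested genes. In 31 genes (86.1%, beside 32.7% of all tested genes) the HFD arrays lay below the LFD arrays. Ndufs7, an iron-sulfur subunit next to the quinone site, had levels of 4.11 and 4.19 in HFD against 4.78 and 4.82 in LFD, and it fell by 0.64 on the log2 scale (SE 0.09, adjusted p = 0.0332). Ndufa10, an accessory subunit, had 2.73 and 2.76 in HFD against 3.41 and 3.38 in LFD (change -0.65, SE 0.09, adjusted p = 0.0311). Ndufa6, another accessory subunit, had 3.15 and 3.24 in HFD against 3.82 and 3.83 in LFD (change -0.63, SE 0.10, adjusted p = 0.0346). In these 3 genes the gap between diets was several times the gap between replicates, and the diets did not overlap. They were chosen for the smallest p of the complex, which favours such a gap.

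The largest change in complex I was that of Ndufa5, an accessory subunit of the peripheral arm, with 4.65 and 4.81 in HFD against 5.41 and 5.43 in LFD (change -0.69, SE 0.11, adjusted p = 0.0356). Ndufv2, an iron-sulfur subunit of the NADH-oxidising module, had 2.73 and 2.79 in HFD against 3.34 and 3.41 in LFD (change -0.62, SE 0.10, adjusted p = 0.0360). Ndufs1, the largest iron-sulfur subunit, had 4.12 and 4.26 in HFD against 4.73 and 4.81 in LFD (change -0.58, SE 0.10, adjusted p = 0.0454). Again both HFD arrays lay below both LFD arrays. Ndufa12, an accessory subunit, and Ndufv1, which binds NADH and the flavin, also fell, with changes of -0.56 and -0.54 (SE 0.10 each) and adjusted p of 0.0430 and 0.0471 in limma.

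Within complex I the 7 nuclear subunits that carry the flavin and iron-sulfur clusters or line the route to quinone, among them Ndufv1, Ndufv2, Ndufs1 and Ndufs7, form the catalytic core shared with bacteria. Of these, 5 fell (71.4%), and the core had a median change of -0.58 and a range of -0.64 to -0.44. Among the 29 accessory genes 4 fell (13.8%), and their median was -0.31. Over all tested genes 5.61% fell. The 10 numbered Ndufb genes, which code for accessory subunits of the membrane arm, included 0 called lower with limma, 5 with an unadjusted p under 0.05 (50%, beside 34.9% of all tested genes), and had a median of -0.25. Ndufb5 had the only positive change of complex I, 0.02, with overlapping diets. This division was made after the values were seen and has no test. With normexp background correction 6 core genes, 9 accessory genes and, among the latter, 2 Ndufb genes were called lower. Of all 17735 tested genes 1238 were called lower under that correction.

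Complex II, which oxidises succinate and belongs to both the citric acid cycle and the chain, has 4 subunits, all nuclear, and 3 of the 4 genes fell. Its median change was -0.60. Over all tested genes 5.61% fell. Sdha, the flavoprotein that oxidises succinate and whose upstream sequence is printed above, had 2.79 and 2.94 in HFD against 3.80 and 3.77 in LFD, and fell by 0.92 on the log2 scale (1.89-fold lower, SE 0.10, adjusted p = 0.0232). This probe lies at chr13:74460146-74460205 (mm9), and the other Sdha probes gave -0.69, also called, and -0.43, which did not pass. Sdhb, the iron-sulfur subunit, had 4.06 and 4.21 in HFD against 4.83 and 4.72 in LFD (change -0.64, SE 0.11, adjusted p = 0.0423). Sdhd, a membrane anchor, had 4.16 and 4.22 in HFD against 4.73 and 4.77 in LFD (change -0.56, SE 0.09, adjusted p = 0.0402). Both HFD arrays lay below both LFD arrays in all 4 genes, as in 32.7% of all tested genes. Sdhc, the other membrane anchor, had a change of -0.33 (SE 0.11) that did not pass (adjusted p = 0.128 in limma).

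Complex III and cytochrome c had 10 tested genes, of which 3 fell (30%, beside 5.61% of all tested genes). All 10 changes were negative, with a median of -0.41. In each gene the HFD arrays lay below the LFD arrays, as in 32.7% of all tested genes. Uqcrc2, a large core protein on the matrix side (probe at chr7:127802599-127802658, mm9), had 4.75 and 4.83 in HFD against 5.52 and 5.55 in LFD (change -0.74, 1.67-fold lower, SE 0.09, adjusted p = 0.0267). Uqcrb, a small subunit that binds near the quinone site, had 4.36 and 4.42 in HFD against 5.20 and 5.06 in LFD (change -0.74, SE 0.10, adjusted p = 0.0308). Uqcrfs1, the Rieske iron-sulfur protein that passes electrons to cytochrome c1, had 4.49 and 4.59 in HFD against 5.19 and 5.24 in LFD (change -0.68, SE 0.10, adjusted p = 0.0325). In these 3 genes, also chosen for the smallest p of the complex, the replicates of a diet lay far closer to each other than the diets did. Cyc1, which codes for cytochrome c1, had a change of -0.44 (SE 0.13), and Cycs, which codes for the mobile cytochrome c, one of -0.31 (SE 0.13); neither passed, with adjusted p of 0.0959 and 0.183 in limma.

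Complex IV, cytochrome c oxidase, had 19 genes, of which 16 were tested, and its called genes were both tissue isoforms. Cox6a2, the heart and skeletal muscle form of a regulatory subunit, had -0.63 and -0.91 in HFD against -2.97 and -3.06 in LFD, and rose by 2.24 on the log2 scale (4.73-fold, SE 0.13, adjusted p = 0.0137). Its probe lies at chr7:135349160-135349219 (mm9). Its widespread partner Cox6a1 had 7.49 and 7.61 in HFD against 7.68 and 7.66 in LFD (change -0.12, SE 0.10, adjusted p = 0.421). Thus the 2 genes for this subunit had opposite signs, with no overlap between diets in either, although the change of Cox6a1 was 0.01 under quantile normalization. Cox6a2 stayed positive in every fit run, between 1.63 and 2.38, but its adjusted p was 0.107 with no filter on dim probes, 0.0571 without HFD replicate 1 and 0.0576 without HFD replicate 2.

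Of 16 skeletal muscle markers tested beside Cox6a2, 1 rose (Pvalb, a calcium-binding protein) and 1 fell (Myl1, a myosin light chain). Over all tested genes 5.75% rose and 5.61% fell. Pvalb was well above background on only 2 arrays and passed the filter through HFD. It had -1.653 and -2.545 in HFD against -6.80 and -6.70 in LFD, which lie near background. The change was positive, as for Cox6a2, in 12 of the 16, with a median of 0.41, beside 0.02 over all tested genes. Their summed signal was 18.2 and 16.5 in HFD and 19.4 and 22.1 in LFD, of which Myl1 alone made up 9.07 and 9.60 in HFD and 13.4 and 15.1 in LFD. Without Myl1 the sums were 9.17 and 6.84 in HFD and 6.00 and 7.05 in LFD, and the diets overlapped. The muscle creatine kinase Ckm had -3.91 and -3.79 in HFD against -4.41 and -4.18 in LFD (change 0.45, SE 0.13, adjusted p = 0.0964). The part of muscle RNA in the rise of Cox6a2 was not tested.

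Cox6b2, known as the testis form of a subunit facing the intermembrane space, had -1.54 and -1.59 in HFD against -0.91 and -0.96 in LFD, and fell by 0.63 on the log2 scale (SE 0.09, adjusted p = 0.0337). Its partner Cox6b1 had 1.45 and 1.54 in HFD against 1.55 and 1.58 in LFD (change -0.07, SE 0.10, adjusted p = 0.652). The diets did not overlap in either gene, but the gap for Cox6b1 was smaller than the spread between the HFD replicates.

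Cox7a1 and Cox8b, the heart, muscle and brown fat forms of small complex IV subunits, had the largest negative changes among the 84 tested nuclear genes and the largest errors. Their probes lie at chr7:30970337-30970948 and chr7:148084852-148084911 (mm9). Cox7a1 had 1.83 and 2.07 in HFD against 3.69 and 2.22 in LFD (change -1.005, SE 0.52, adjusted p = 0.246). Cox8b had 2.82 and 3.24 in HFD against 4.63 and 3.57 in LFD (change -1.07, SE 0.40, adjusted p = 0.150). In both, LFD replicate 1 stood well above the other 3 arrays and LFD replicate 2 lay just above the HFD arrays. Without LFD replicate 1 the changes were -0.27 for Cox7a1 and -0.54 for Cox8b. Without LFD replicate 2 they were -1.74, then called with an adjusted p of 0.0480, and -1.60.

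LFD replicate 1 was the highest of the 4 arrays for 8 of 12 tested brown or beige markers, Cox7a1 and Cox8b among them, and for the others it was not. Ucp1 had -1.08 and -1.02 in HFD against 5.10 on LFD replicate 1 and 2.82 on LFD replicate 2. Cpt1b, the muscle and brown fat form of the enzyme that admits fatty acids to mitochondria, had -1.26 and -1.25 in HFD against 0.32 and -1.40 in LFD. Of 12 tested brown or beige markers 4 fell (Ucp1, Cidea, Dio2 and Ppargc1a), beside 5.61% of all tested genes. Dio2 was well above background on only 3 arrays. The change was negative in 10 of the 12 and positive in 2, Otop1 (0.83) and Prdm16 (0.19), neither of them called. The list, which includes Cox7a1 and Cox8b, summed to 17.9 and 22.6 in HFD and 137 and 58.8 in LFD. Of its defining genes, Zic1 and Tmem26 were not well above background in either diet. LFD replicate 1 was also the highest array for 7 of 9 T and B cell markers. Ms4a1, a B cell surface protein, had -2.57 and -1.12 in HFD against 1.22 on LFD replicate 1 and -1.98 on LFD replicate 2. The part of brown or beige cells, or of lymphocytes, in the values of Cox7a1 and Cox8b was not tested.

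The partners Cox7a2 and Cox8a had no such spread. Cox7a2 had 5.14 and 5.20 in HFD against 5.38 and 5.46 in LFD (change -0.25, SE 0.10, adjusted p = 0.160). Cox8a had 6.48 and 6.59 in HFD against 6.72 and 6.80 in LFD (change -0.23, SE 0.10, adjusted p = 0.202). In both the HFD arrays lay below the LFD arrays.

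**Figure D3:**
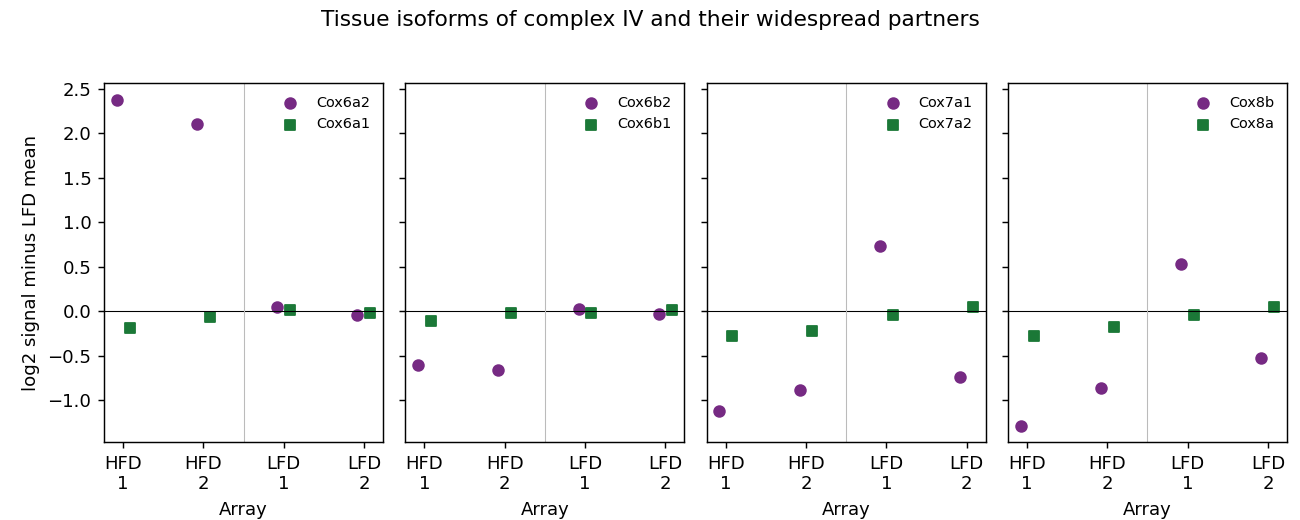
Log2 signal of 4 tissue isoforms of complex IV (purple circles) and of their widespread partners (green squares) on each array, each minus the gene's own LFD mean. Cox6a2 is more than 2 above its LFD mean on both HFD arrays, and LFD replicate 1 stands apart from LFD replicate 2 for Cox7a1 and Cox8b.

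The change in the isoform balance was also computed within arrays, as the difference in log2 signal of an isoform and its partner, for 6 pairs. The balance of Cox6a2 to Cox6a1 was 2.37 higher in HFD, that of Cox6b2 to Cox6b1 was -0.57, that of Cox8b to Cox8a -0.85 and that of Cox7a1 to Cox7a2 -0.76 (HFD minus LFD, log2). For the Cox6a pair, the Cox6b pair and the Cox8 pair the diets did not overlap, with an exact two-sided permutation p of 0.333, the smallest that 2 arrays against 2 can give (0.5 after adjustment over the 6 pairs). For the Cox7a pair the exact p was 0.667 (adjusted 0.800). With this number of arrays the permutation test cannot reach the threshold.

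Cox6c, a small membrane subunit, had 5.82 and 5.95 in HFD against 6.45 and 6.40 in LFD (change -0.54, SE 0.10, adjusted p = 0.0505). Cox4i1, the widespread form of the largest nuclear subunit, had 6.14 and 6.24 in HFD against 6.60 and 6.52 in LFD (change -0.37, SE 0.10, adjusted p = 0.0888). Cox7b, a small membrane subunit, had 3.86 and 3.93 in HFD against 4.37 and 4.31 in LFD (change -0.45, SE 0.10, adjusted p = 0.0601). The diets did not overlap in these 3 genes although limma called none of them. Ndufa4, first described with complex I and since assigned to complex IV, had 5.10 and 5.30 in HFD against 5.44 and 5.49 in LFD (change -0.26, SE 0.11, adjusted p = 0.187). Cox7a2l, a supercomplex factor and no core subunit, had overlapping diets, 3.17 and 3.23 in HFD against 3.36 and 3.18 in LFD (change -0.07, SE 0.11, adjusted p = 0.678). Without Cox6a2, Cox6b2, Cox7a1 and Cox8b the 12 tested genes of complex IV had a median change of -0.32, all 12 negative and 0 called with limma, 6 with an unadjusted p under 0.05 (50%, beside 34.9% of all tested genes).

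Complex V, ATP synthase, had 18 tested genes with 0 calls in limma; 9 had an unadjusted p under 0.05 (50%, beside 34.9% of all tested genes). All 18 changes were negative, with the smallest median of the 5 complexes, -0.28. In 16 (88.9%, beside 32.7% of all tested genes) the HFD arrays lay below the LFD arrays. Atp5k, subunit e of the membrane part, had 3.61 and 3.72 in HFD against 4.12 and 4.24 in LFD (change -0.51, SE 0.11, adjusted p = 0.0575). Atp5h, subunit d of the peripheral stalk, had 4.97 and 5.16 in HFD against 5.58 and 5.54 in LFD (change -0.50, SE 0.11, adjusted p = 0.0656). In both genes the diets did not overlap. The 5 genes of the catalytic F1 head and its stalk (Atp5a1, Atp5b, Atp5c1, Atp5d and Atp5e) had a median change of -0.20 and 0 calls with limma, 2 with an unadjusted p under 0.05 (40%, close to the 34.9% of all tested genes). Atp5c1-ps, a pseudogene of Atp5c1 whose probe may share signal with its parent, had 3.90 and 4.12 in HFD against 4.53 and 4.65 in LFD (change -0.58, SE 0.12, adjusted p = 0.0604).

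A set of 3 genes codes for the same mature c subunit, which forms the rotating ring of ATP synthase. Atp5g1 had 2.88 and 2.91 in HFD against 2.88 and 3.05 in LFD (change -0.07, SE 0.11, adjusted p = 0.660). Atp5g2 had 4.25 and 4.31 in HFD against 4.59 and 4.55 in LFD (change -0.29, SE 0.09, adjusted p = 0.120). Atp5g3 had 6.85 and 6.95 in HFD against 6.91 and 7.08 in LFD (change -0.09, SE 0.11, adjusted p = 0.584). The diets overlapped for Atp5g1 and Atp5g3 and not for Atp5g2. The balance of Atp5g1 to Atp5g2 was 0.21 (exact permutation p = 0.333, adjusted 0.5) and that of Atp5g1 to Atp5g3 was 0.02 (exact permutation p = 1, adjusted 1), HFD minus LFD on the log2 scale. Atp5s and Atp5sl, now named Dmac2l and Dmac2, share the Atp5 name but are no subunits of the enzyme, and had changes of -0.28 and -0.31 that did not pass.

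Where a gene had several probes they mostly moved alike. Several tested probes were available for 26 genes, and in 24 of them the signs were alike. The exceptions were Ndufa3 and Ndufc1, whose probes of opposite sign were well above background on 1 of 2 HFD arrays. Over all 121 tested probes 22 were called lower and 1 higher. Ndufab1, the mitochondrial acyl carrier protein, and Uqcrq each had 1 probe called lower that was not their brightest, and Ndufv3 had 2. The brightest probes of Ndufab1, Ndufv3 and Uqcrq did not pass, with changes of -0.47, -0.26 and -0.32.

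The genome of the mitochondrion itself codes for subunits of complexes I, III, IV and V, of which 4 had probes. ATP6, part of the proton channel of complex V, had 5.03 and 5.11 in HFD against 6.26 and 6.09 in LFD (change -1.11, 2.16-fold lower, SE 0.11, adjusted p = 0.0201). CYTB, the cytochrome b of complex III, had 5.81 and 5.87 in HFD against 6.71 and 6.62 in LFD (change -0.82, SE 0.10, adjusted p = 0.0242). ND4, a proton-pumping subunit of complex I, had 5.59 and 5.66 in HFD against 6.15 and 6.09 in LFD (change -0.49, SE 0.10, adjusted p = 0.0509), and COX2, the complex IV subunit that takes electrons from cytochrome c, had 7.31 and 7.37 in HFD against 7.42 and 7.47 in LFD (change -0.11, SE 0.09, adjusted p = 0.459). The HFD arrays lay below the LFD arrays in all 4, as in 32.7% of all tested genes. Of the 4, 2 fell, beside 5.61% of all tested genes. Their median change was -0.66.

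Of the 42 tested factors that assemble the complexes 1 fell, Bcs1l, which inserts the Rieske protein into complex III (change -0.58, SE 0.11, adjusted p = 0.0488). Over all tested genes 5.61% fell. An unadjusted limma p under 0.05 was found for 19 of the 42, beside 34.9% of all tested genes. In 34 of the 42 the change was negative, with a median of -0.23. Among 20 tested genes that control mitochondrial transcription and biogenesis, 2 fell, and 8 had an unadjusted limma p under 0.05. Ppargc1a, the coactivator that drives mitochondrial biogenesis, had -1.46 and -1.43 in HFD against -0.40 and -0.39 in LFD (change -1.05, 2.07-fold lower, SE 0.09, adjusted p = 0.0172). Polg2, the accessory subunit of the mitochondrial DNA polymerase, had -0.48 and -0.53 in HFD against 0.14 and 0.26 in LFD (change -0.70, SE 0.10, adjusted p = 0.0323). In both the diets were well apart. The related coactivator gene Ppargc1b had 0.11 and -0.22 in HFD against 0.83 and 1.55 in LFD (change -1.24, SE 0.29, adjusted p = 0.0674).

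The factors whose motifs were searched above did not pass. Nrf1 had a change of -0.09, Gabpa of -0.13, Esrra of -0.14 and Yy1 of 0.41, with adjusted p of 0.508, 0.377, 0.361 and 0.119 in limma. Tfam, which packages and transcribes mitochondrial DNA, had a change of 0.12 (SE 0.13, adjusted p = 0.547). The 20 control genes had a median change of -0.16.

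Other mitochondrial genes, such as those for porins, import proteins and carriers, gave a background for the organelle. Of 33 tested 0 were called with limma, and 13 had an unadjusted p under 0.05, close to the 34.9% of all tested genes. In 30 the change was negative, and the median was -0.20, beside -0.37 for the respiratory chain. Citrate synthase (Cs), a common measure of mitochondrial content, had 6.06 and 6.10 in HFD against 6.45 and 6.56 in LFD (change -0.43, SE 0.10, adjusted p = 0.0681). The difference between the lists was not tested.

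**Figure D4:**
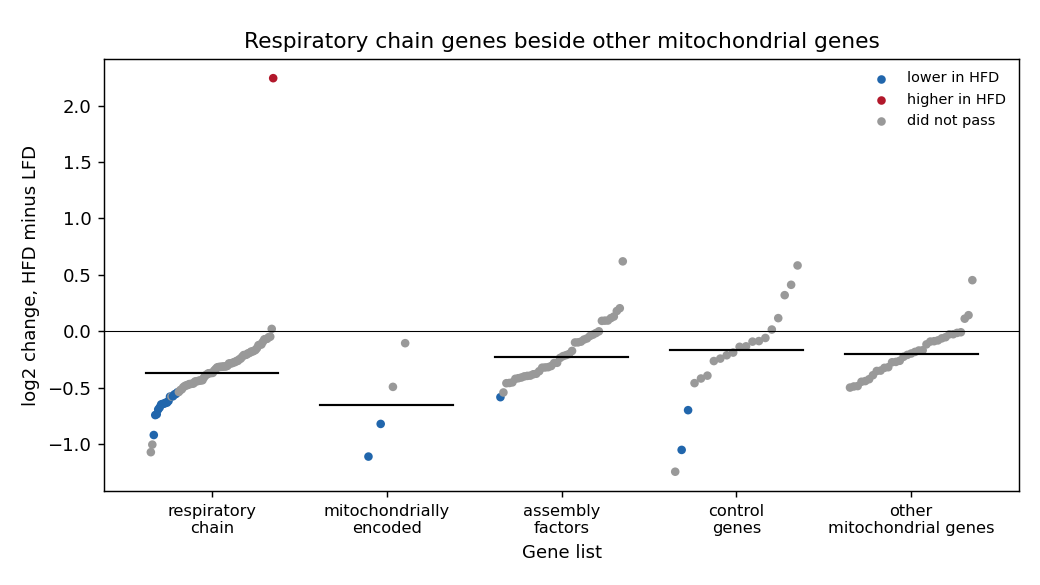
Log2 change (HFD minus LFD, vertical axis) of the tested respiratory chain genes and of 4 further mitochondrial gene lists; points are genes, black lines list medians, blue and red points passed limma at an adjusted p under 0.05. The median is -0.37 for the respiratory chain, -0.66 for 4 mitochondrially encoded genes, -0.23 for assembly factors, -0.16 for control genes and -0.20 for other mitochondrial genes.

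The count of calls depended on the settings far more than the direction did. It lay between 0 and 44 members lower under the settings tried, while the number of members with a negative change lay between 79 and 83. Over all tested genes, those called lower ranged from 0 to 2188 under the same settings. The 16 falls were all among the genes called under normexp, quantile normalization and median scaling.

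**Figure D5:**
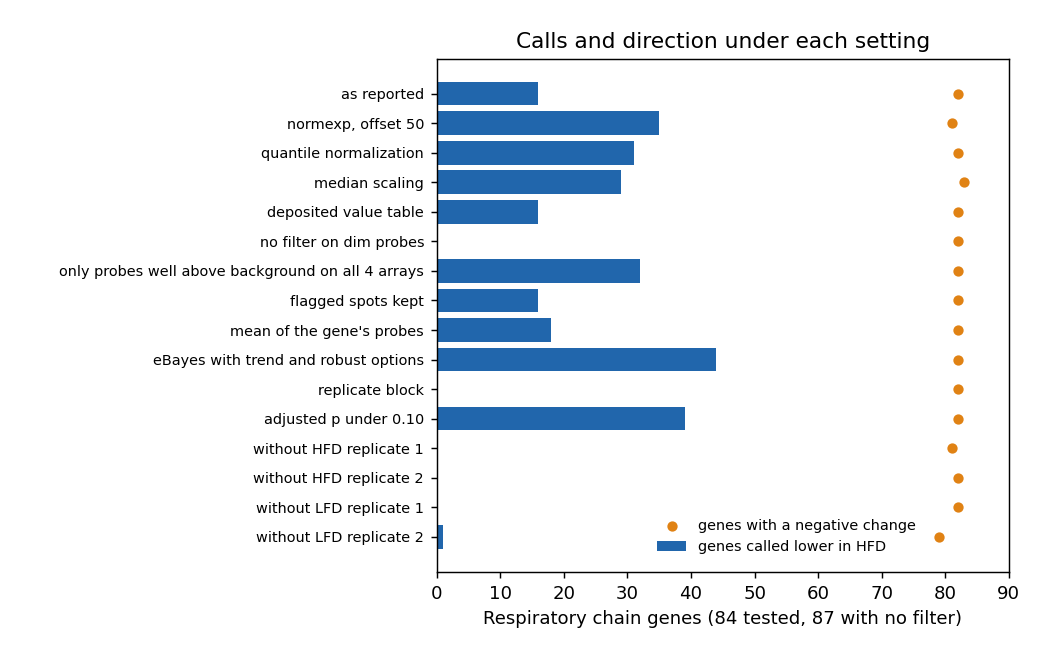
Respiratory chain genes called lower in HFD (blue bars, counted from 0) and respiratory chain genes with a negative change (orange points) under each setting. The bars range from 0 to 44 and the points from 79 to 83.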

How the data were processed

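White adipose RNA was measured on 4 one-colour Agilent arrays, 2 per diet, on 1 slide in 1 scan, per the file headers. Spot intensities are the scanner output that the authors deposited, which Feature Extraction had background-subtracted and spatially detrended array by array (version 11.0.1.1 per the file headers, 11.5.1.1 per the submitters' processing notes). The value table deposited with the series holds a ratio, processed signal over the array's 75th percentile, found by setting it against the scanner signals; its column medians were 0.130 and 0.131 (HFD) and 0.117 and 0.127 (LFD), on a linear scale without centring.

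Log2 processed signal minus each array's 75th percentile was computed, spots of a probe were averaged, and spots with an outlier flag were dropped (60 to 115 per array). Saturation was not seen on any spot. The diets were compared by lmFit and eBayes of limma 3.58.1 under R 4.3.3, two-sided, with tables read by data.table version 1.17.8; residual degrees of freedom were 2 and prior ones 2.24. Adjustment ran over all tested probes. The number of arrays limits the precision. Symbols were checked against a RefSeq table by accession (27668 probes matched). Probe positions in the files are in mm9, of which no annotation was used here, so exon or UTR location was not analysed here. The procedure was tested on simulated data.

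Values in every array were given for the 3 members of smallest p per complex, isoform sets, members called higher and the 3 largest further changes, and list genes were named where called. Ckm, Cpt1b, Ms4a1, Cs, Ppargc1b, Tfam, ND4, COX2 and the factors of the searched motifs, and members named by change alone, were added after their values were seen. Some genes that the rule names are counted but not reported by name here. The members and lists were chosen with earlier results of these data known. The labels do not pair the arrays by replicate number. Deviations of replicate 1 from its diet mean correlated at -0.0046 between diets, which does not settle whether they are paired. Alternatives were other background corrections, scalings, filters, probe choices, moderation, a replicate block, a threshold of 0.10 and leaving out each array.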

Additional observations from a re-analysis of the deposited data

How the results depend on the processing

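With only 2 arrays per diet the calls rest on few degrees of freedom. Members lower (16 as reported) numbered 35 with normexp, 31 with quantile normalization, 29 with median scaling, 32 with only probes well above background on all 4 arrays, 44 with trend and robust moderation and 39 at an adjusted p under 0.10. Calls also rose over all 17735 tested genes, where 995 were lower as reported. In the same order they numbered 1238, 1235, 1334, 1310 (of 14794), 1807 and 2188. With no filter on dim probes limma called 0 members and 0 of all 27612 genes, so Cox6a2 was no longer called. An unadjusted p under 0.05 was then found for 39 members, as for 20.3% of all genes. The count was 16 with the deposited value table and with flagged spots kept, and 18 with the mean of a gene's probes. With the replicate block 0 members were lower (48 with an unadjusted p under 0.05, beside 35% of all genes), and 1, Cox6a2, was higher. Over all tested genes 208 were lower. The block takes 1 of the 2 residual degrees of freedom, and the cause of the drop was not tested. The numbers are not paired in the labels and the deviations correlated at -0.0046. Leaving out single arrays leaves a lone array in 1 diet, which is assumed to vary like the other diet. Fewer members and fewer of all tested genes were then called lower.

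By complex, in the order I, II, III with cytochrome c, IV and V, members lower were 15, 3, 7, 6 and 4 with normexp, 13, 3, 4, 6 and 5 with quantile normalization, 15, 3, 3, 5 and 3 with median scaling, 15, 3, 4, 6 and 4 with probes above background on all arrays, 10, 3, 3, 1 and 1 with the mean of probes, 19, 3, 8, 7 and 7 with trend and robust moderation, and 18, 3, 6, 7 and 5 at 0.10. All 5 counts were 0 with no filter and with the replicate block.

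Median scaling, which moved the median of all genes to -0.07, gave median changes of -0.46 for all members and -0.45, -0.69, -0.50, -0.49 and -0.37 by complex. The mean of probes gave -0.35 in complex V. Leaving out single arrays gave medians of -0.43 to -0.29 for all members, and of -0.43 to -0.30, -0.65 to -0.55, -0.49 to -0.33, -0.44 to -0.31 and -0.33 to -0.25 by complex. Of the named genes, changes turned positive for Cox6a1 with quantile normalization (0.0071) and Cox7a2l with normexp (0.0476). With single arrays left out Cox7a2l ranged from -0.157 to 0.017 (highest without LFD replicate 1) and Atp5g1 from -0.154 to 0.0108 (highest without LFD replicate 2). None of these was called. The cause of these shifts was not tested. The slide could not be used as a block, as all arrays lay on 1 slide.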
